A study of Homo sapiens with 6 samples.

Results

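A set of 10 genes of the transforming growth factor beta (TGF-beta) superfamily was examined in hepatoma cells overexpressing TKT. They were the ligand genes INHBA, INHBB, INHBE, BMP2, BMP4, TGFB1, TGFB2, GDF11 and GDF15 and the antagonist gene FST. The 10 were taken by gene symbol from the 22077 symbols of the deposited table, all 10 were found there, and all 10 were among the 14162 genes with enough counts to be tested. The list was selected from family membership with results of this same contrast already known, that is, with the fold changes of TKT-overexpressing against control cells. The values of these genes are therefore given as a description, with intervals and without p-values. RNA-seq gave 6 libraries, 3 with over-expression of TKT and 3 of the control group, which carries the genotype label wt. The label for the cell line reads Hu7, a spelling close to Huh7, the human hepatocellular carcinoma line named in the Results of the study, whereas its Methods name HCCLM3 for the sequenced cells. TKT was expressed from a plasmid with GFP and puromycin resistance after transfection and selection. The control samples are titled VC with a replicate number, an abbreviation that the labels do not spell out. The labels also do not say whether the cells were 1 clone or what the control cells carried.

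TGF-beta superfamily ligands are secreted dimers that bring together type I and type II receptor serine kinases. TGF-betas, activins and some growth and differentiation factors signal mainly through SMAD2 and SMAD3, bone morphogenetic proteins (BMPs) mainly through SMAD1, SMAD5 and SMAD9, and both branches share SMAD4. In liver, TGF-beta restrains hepatocyte growth and drives fibrosis, BMPs control iron metabolism, and follistatin, the product of FST, binds activins and keeps them from their receptors. GDF15 is a distant member of the family and a circulating marker of cell stress.

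TKT, the pentose phosphate pathway enzyme that was overexpressed, had between 294602 and 348402 counts in the TKT-overexpressing libraries and between 14256 and 17275 in the control libraries. Its log2 fold change was 4.26 (standard error 0.04, edgeR adjusted p = 1.15e-25). An exact two-sided permutation test of its normalised counts gave p = 0.1, the smallest p that 3 libraries against 3 allow. Totals lay between 30148788 and 37096156 counts per library. The 6 hepatocyte or hepatoma markers, ALB, AFP, APOA1, TTR, SERPINA1 and HNF4A, were all expressed, with a summed level of 17960 to 18273 CPM on TKT overexpression and 17558 to 17914 CPM in control cells, and HNF4A was lower (log2 fold change -0.15, edgeR adjusted p = 0.00720). Some markers of other cell types were expressed and others were near or at 0. PECAM1 of the endothelial list had 472 to 717 counts, and CD14 of the leukocyte list had 213 to 290. RGS5 and PDGFRB of the stellate cell or fibroblast list had 84 to 115 and 39 to 85 counts. None of these genes was called. COL1A2 and LUM of the stellate cell or fibroblast list, VWF of the endothelial list, and CD68 and CSF1R of the leukocyte list had at most 3 counts in any library, while COL3A1, DCN, CDH5, KDR and PTPRC had no row in the table. The leukocyte list summed to between 122 and 129 CPM on overexpression and between 154 and 164 CPM in control cells, of which LYZ gave the largest part and was lower (log2 fold change -0.35, edgeR adjusted p = 1.71e-05). The stellate cell or fibroblast list summed to 4.91 to 6.35 CPM on overexpression and 5.19 to 5.46 CPM in control cells, and the endothelial list to 15.4 to 19.4 against 17.1 to 20.5 CPM. The part of these markers in the results was not tested.

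Counts were scaled with TMM factors to a common library size and are given as CPM, counts relative to the scaled library total. A gene was called where the edgeR quasi-likelihood test, run over all 14162 genes, gave a Benjamini-Hochberg adjusted p-value under 0.05. Among the 10 genes, 7 were called higher on TKT overexpression (INHBA, GDF15, FST, TGFB2, BMP2, INHBE and BMP4), 1 was called lower (GDF11), and 2 were not called (INHBB and TGFB1). Over all tested genes, 5.69% were called higher and 4.94% lower. The values of the groups did not overlap in 8 of the 10, against 28.0% of all tested genes. The study also required an absolute log2 fold change over 1, with DESeq2. When that threshold was added to the edgeR call, 1 of the 10 was called, INHBA, against 0.727% of all tested genes. With DESeq2, 0 of the 10 passed it, and INHBA had no adjusted p-value there. The median log2 fold change was 0.61 over the 10 genes and 0.00 over all tested genes. Because the genes were chosen with this contrast in view, nothing is read from these counts. In bulk RNA, a larger share of expressing cells and more RNA per cell cannot be told apart.

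**Figure D1:**
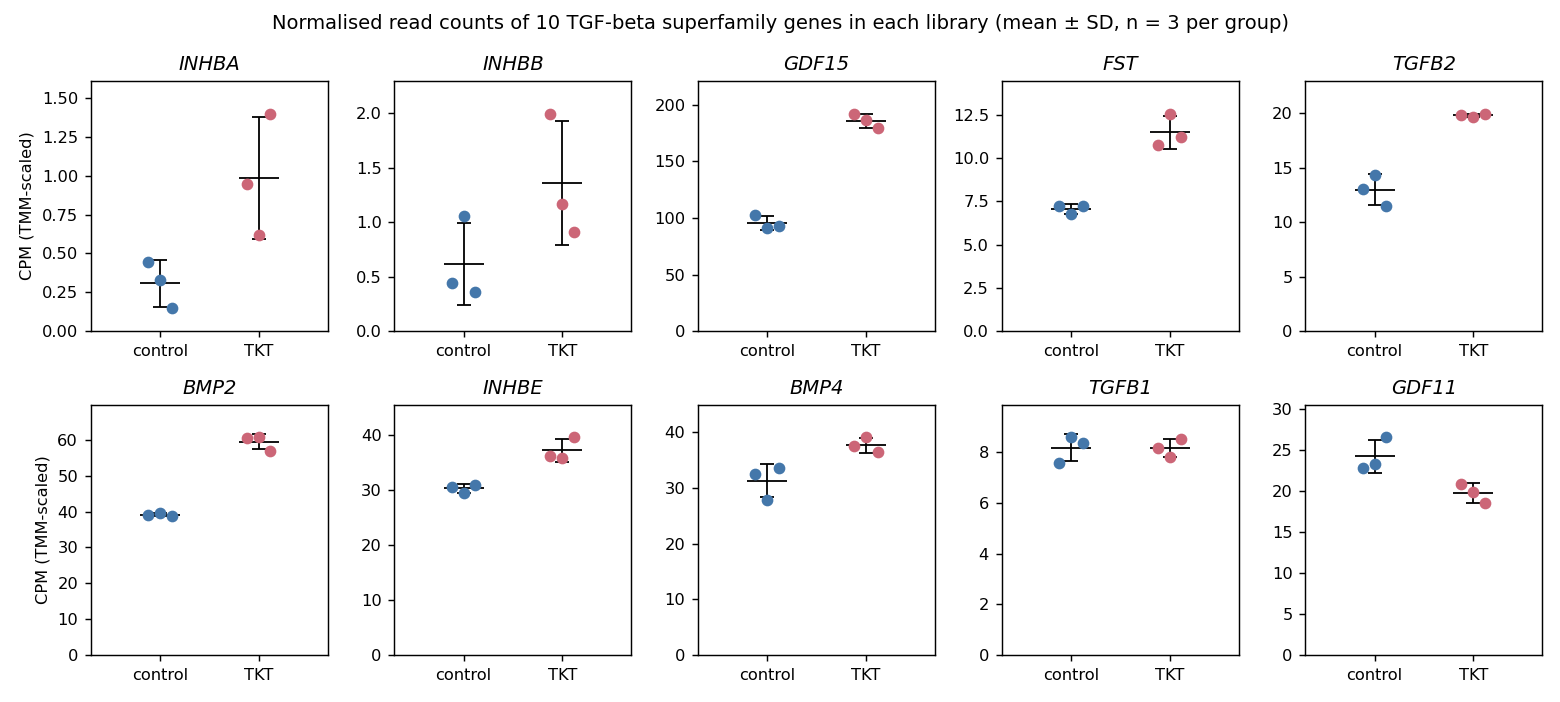
Normalised read counts (CPM, linear axes from 0) of the 10 genes, ordered by log2 fold change. Each point is 1 library, and the bar and whiskers are the mean and SD of 3 libraries. INHBB and TGFB1 are the 2 genes whose groups overlap, and GDF11 is the 1 gene whose TKT-overexpressing libraries all lie below the control libraries.

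The promoters of 3 genes are shown because they belong to the most abundant gene of the group, GDF15, to the TGF-beta isoform that was called higher, TGFB2, and to the gene called lower, GDF11. Each run is the 250 bases before the RefSeq start of the gene, 5′ to 3′ on the gene's strand, which is the plus strand of GRCh38.p14 for all 3. Capitals mark TATA boxes (TATAAA), E-boxes (CACGTG), SMAD boxes (CAGACA) and the core of the cyclic AMP response element (TGACGT, read on the opposite strand in TGFB2). The SMAD box and the E-box of TGFB2 overlap. The TGFB2 and GDF11 windows lie before the gene starts of GENCODE 29, and the GDF15 window lies inside the GDF15 span of that annotation. The TGFB2 window overlaps an exon of TGFB2-AS1, a non-coding gene of the opposite strand.
GDF15, chr19:18385908-18386157: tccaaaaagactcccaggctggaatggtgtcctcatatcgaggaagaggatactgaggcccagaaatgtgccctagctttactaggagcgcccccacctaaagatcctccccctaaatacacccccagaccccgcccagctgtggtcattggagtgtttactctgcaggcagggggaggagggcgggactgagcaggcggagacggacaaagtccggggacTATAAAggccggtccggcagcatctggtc
TGFB2, chr1:218345086-218345335: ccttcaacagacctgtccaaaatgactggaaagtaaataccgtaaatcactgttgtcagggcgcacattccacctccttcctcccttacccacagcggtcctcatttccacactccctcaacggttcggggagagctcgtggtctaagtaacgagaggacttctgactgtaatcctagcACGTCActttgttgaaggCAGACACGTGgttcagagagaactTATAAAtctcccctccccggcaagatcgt
GDF11, chr12:55742872-55743121: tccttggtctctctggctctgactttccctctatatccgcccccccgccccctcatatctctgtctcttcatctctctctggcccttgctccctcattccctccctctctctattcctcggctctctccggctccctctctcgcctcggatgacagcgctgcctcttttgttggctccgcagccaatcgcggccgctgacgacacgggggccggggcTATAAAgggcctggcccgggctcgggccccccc

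Promoters were matched by symbol for 8 of the 10 genes, with 10 promoters in all since BMP4 has 3 of them, and both strands of the 250 bases before the start were searched. A TATA box stood in those of GDF15, TGFB2, GDF11 and INHBA, 4 of the 10 promoters, against 10.7% of all 35116 promoters of the same length. In GDF15 and TGFB2 it lay from 29 to 24 bases before the start, in GDF11 from 33 to 28 bases, and in INHBA from 11 to 6 bases. The TATA box was thus in promoters of genes called higher and of the gene called lower. A SMAD box and an E-box were present in TGFB2 and in 1 of the BMP4 promoters, against 13.6% and 6.34% of all promoters. The SMAD half-site GTCT, which overlaps the SMAD box, stood in 8 of the 10 and in 77.5% of all promoters. The core TGACGT was in TGFB2 alone (7.10% of all promoters). The AP-1 site (TGACTCA or TGAGTCA, 4.20% of all), the full cyclic AMP response element (TGACGTCA, 1.65%), the CArG box (1.16%) and the ATF4-C/EBP element (TGATGNAAT, 0.888%) were not found in these windows. The promoters differed in base composition. That of INHBB was 89.6% G and C, that of TGFB1 76.8%, those of GDF15 and TGFB2 58.4% and 50.4%, and that of INHBA 42.8%.

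GDF15, on chromosome 19 (18374731 to 18389176, plus strand, GRCh38, GENCODE 29, ENSG00000130513.6), was the most abundant of the 10 and the best counted. It was counted 7125, 5746 and 5907 times on TKT overexpression and 3231, 2775 and 3108 times in control cells. On the CPM scale it had 192, 186 and 179.6 on overexpression and 103, 91.3 and 92.6 in control cells. The lowest TKT-overexpressing library was well above the highest control library. The log2 fold change was 0.96 (standard error 0.05, 95% interval 0.86 to 1.06), a 1.95-fold difference with an interval of 1.81 to 2.09. It was called higher but lay just under the absolute log2 fold change of 1. GDF15 had a larger log2 fold change than 97.9% of the tested genes.

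The activins are dimers of inhibin beta chains. INHBA, which encodes the beta A chain of activin A, lies on chromosome 7 (41667168 to 41705834, minus strand, ENSG00000122641.10). It had 35, 19 and 46 counts on TKT overexpression and 14, 10 and 5 in control cells, which is 0.944, 0.616 and 1.40 CPM against 0.446, 0.329 and 0.149 CPM. The groups did not overlap, and each group spread more than 2-fold, so the log2 fold change of 1.68 had a standard error of 0.50 and a 95% interval of 0.64 to 2.71. The count filter corresponds to 0.312 CPM, which INHBA reached in 3 of 3 libraries on overexpression and in 2 of 3 control libraries. The filter needs 3 libraries, so the control libraries alone would not have carried INHBA through it. The call of INHBA is therefore not read as support. The opposite-strand gene INHBA-AS1 overlaps INHBA and had at most 6 counts. INHBA was not called without TKT overexpression replicate 1 (log2 fold change 1.71), TKT overexpression replicate 3 (1.35) or control replicate 3 (1.34).

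INHBB, which encodes the beta B chain of activin B, lies on chromosome 2 (120346143 to 120351808, plus strand, ENSG00000163083.5). It had 74, 36 and 30 counts on overexpression and 14, 32 and 12 in control cells, or 2.00, 1.17 and 0.912 CPM against 0.446, 1.05 and 0.358 CPM. Control replicate 2 lay above TKT overexpression replicate 3, so the groups overlapped. For INHBB the log2 fold change was 1.14 (standard error 0.43, 95% interval 0.24 to 2.05) and it was not called. Without control replicate 2 it was 1.76 and INHBB was called, and over the 6 fits that each left out 1 library it lay between 0.75 and 1.76.

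INHBE, which encodes the beta E chain and is expressed mainly in liver, lies on chromosome 12 (57452323 to 57459280, plus strand, ENSG00000139269.2). It was far better counted than the other beta chains, with 1337, 1104 and 1299 counts on overexpression and 957, 893 and 1034 in control cells. This gave 36.1, 35.8 and 39.5 CPM against 30.5, 29.4 and 30.8 CPM, with no overlap. The difference was small, a log2 fold change of 0.30 (standard error 0.07, 95% interval 0.16 to 0.43), a 1.23-fold difference, and it was called higher in the reported fit and in all 14 other fits. INHBC, the neighbouring gene for the beta C chain, had between 22 and 44 counts and was not called (0.33 on the log2 scale, edgeR adjusted p = 0.666).

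FST, the gene of the activin antagonist follistatin, lies on chromosome 5 (53480409 to 53487134, plus strand, ENSG00000134363.11). It had 398, 388 and 369 counts on overexpression and 227, 205 and 242 in control cells. The CPM were 10.7, 12.6 and 11.2 on overexpression and 7.22, 6.75 and 7.21 in control cells, and the groups did not overlap. FST was called higher, with a log2 fold change of 0.70 (standard error 0.12, 95% interval 0.45 to 0.96), a 1.63-fold difference. FST was thus called higher in the same cells as INHBE. INHBA was called as well, with the limits given above, and INHBB was not called. The ratio of FST to INHBE, taken on the FPKM scale in each library, averaged 0.344 ± 0.0394 under overexpression against 0.259 ± 0.00425 for controls (SD, n = 3 each), without overlap. The ratio of INHBA plus INHBB to FST, 0.132 ± 0.0498 against 0.0910 ± 0.0526 (SD, n = 3 each), overlapped between the groups.

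Both BMP genes were called higher. BMP2, on chromosome 20 (6767664 to 6780280, plus strand, ENSG00000125845.6), had 2247, 1874 and 1877 counts on overexpression and 1226, 1204 and 1304 in control cells. Its CPM were 60.6, 60.7 and 57.1 against 39.0, 39.6 and 38.9. The control libraries lay within 1 CPM of each other and all TKT-overexpressing libraries were far above them. The log2 fold change of BMP2 was 0.60 (standard error 0.05, 95% interval 0.49 to 0.72), a 1.52-fold difference.

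BMP4, on chromosome 14 (53949736 to 53958761, minus strand, ENSG00000125378.15), had 1391, 1207 and 1199 counts on overexpression and 1023, 848 and 1125 in control cells. The CPM were 37.5, 39.1 and 36.5 against 32.6, 27.9 and 33.5, and control replicate 2 was the lowest of the 6. The log2 fold change was 0.27 (standard error 0.07, 95% interval 0.12 to 0.41). BMP4 was called higher, but not without TKT overexpression replicate 1 (log2 fold change 0.27), TKT overexpression replicate 2 (0.24) or control replicate 2 (0.19). On the FPKM scale the ratio of BMP2 to BMP4 was 1.38 ± 0.0290 on overexpression and 1.10 ± 0.123 in control cells (SD, n = 3 each), without overlap.

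Of the TGF-beta isoforms, TGFB2 was called higher and TGFB1 was not called. TGFB2, on chromosome 1 (218346235 to 218444619, plus strand, ENSG00000092969.11), had 734, 607 and 656 counts on overexpression and 411, 435 and 385 in control cells. Its CPM were 19.8, 19.7 and 19.9 against 13.1, 14.3 and 11.5, so the TKT-overexpressing libraries were almost equal and stood above every control library. The log2 fold change of TGFB2 was 0.61 (standard error 0.10, 95% interval 0.41 to 0.82), a 1.53-fold difference.

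TGFB1, on chromosome 19 (41301587 to 41353911, minus strand, ENSG00000105329.9), had 303, 241 and 280 counts on overexpression and 238, 261 and 281 in control cells. The CPM were 8.18, 7.81 and 8.51 against 7.57, 8.59 and 8.37, with the groups fully intermixed. Its log2 fold change was 0.00 with a 95% interval of -0.26 to 0.26, which leaves room for a difference between 0.833-fold and 1.20-fold. TGFB1 overlaps 4 annotated genes of the opposite strand, among them HNRNPUL1 (log2 fold change -0.01) and CCDC97 (0.04), neither of which was called. The strand setting of the counting is not given in the sources used here, so reads of overlapping genes may be missing from or added to TGFB1. The ratio of TGFB2 to TGFB1 on the FPKM scale was 1.31 ± 0.0475 on overexpression and 0.857 ± 0.103 in control cells (SD, n = 3 each), without overlap. TGFB3, the remaining isoform, had between 69 and 122 counts and was not called (0.14 on the log2 scale, edgeR adjusted p = 0.760).

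GDF11, a ligand of activin receptors close to myostatin, was the only one of the 10 called lower. It lies on chromosome 12 (55743280 to 55757278, plus strand, ENSG00000135414.9) and had 775, 613 and 609 counts on overexpression and 718, 708 and 892 in control cells. The CPM were 20.9, 19.9 and 18.5 against 22.8, 23.3 and 26.6, and the highest TKT-overexpressing library was below the lowest control library. Its log2 fold change was -0.29 (standard error 0.09, 95% interval -0.48 to -0.11), a ratio of 0.815. GDF11 was not called without TKT overexpression replicate 2 (log2 fold change -0.30), TKT overexpression replicate 3 (-0.25) or control replicate 3 (-0.22). It overlaps SARNP on the opposite strand, which had at most 9 counts.

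**Figure D2:**
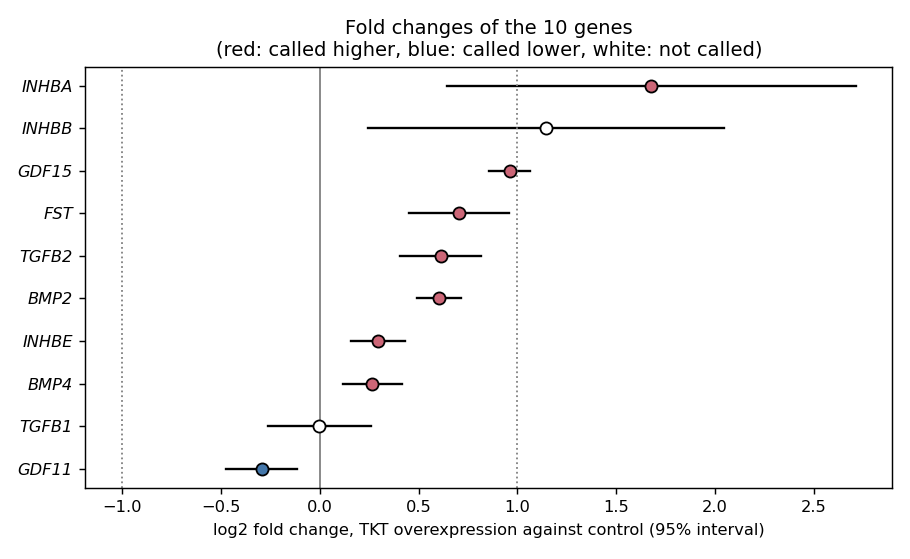
Log2 fold changes of the 10 genes, TKT overexpression against control, with 95% intervals from edgeR. Dotted lines stand at -1 and 1. INHBA and INHBB have the widest intervals, GDF15 the narrowest, from 0.86 to 1.06, and the interval of TGFB1 is centred on 0.

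Levels of different genes were compared per length, on the FPKM scale. Counts and FPKM together imply gene lengths from 2094 bases for GDF15 to 8832 bases for GDF11. The order between genes depends on these lengths, which may differ from those of the expressed transcripts. In control cells GDF15 led with 45.5 ± 2.81 FPKM, followed by BMP2 with 11.0 ± 0.208, BMP4 with 10.1 ± 0.883 and INHBE with 9.87 ± 0.160 (SD, n = 3 each). BMP4 and INHBE overlapped in their ranges, and so did each neighbouring pair among GDF11, FST, TGFB1 and TGFB2, whose means lay between 2.13 and 2.74 FPKM. INHBB had 0.193 ± 0.120 and INHBA 0.0370 ± 0.0179 FPKM (SD, n = 3 each), the lowest of the 10. On TKT overexpression GDF15 reached 88.9 ± 2.48 and BMP2 16.7 ± 0.398 FPKM (SD, n = 3 each). INHBE with 12.2 ± 0.830 and BMP4 with 12.1 ± 0.282 FPKM (SD, n = 3 each) again overlapped. FST rose from the sixth to the fifth place with 4.17 ± 0.313 FPKM, TGFB2 from the eighth to the sixth with 3.27 ± 0.0644, and GDF11 stood eighth instead of the fifth with 2.24 ± 0.120 (SD, n = 3 each), overlapping TGFB1 in the seventh place. The 9 ligands together had 138 ± 2.57 FPKM on overexpression and 84.1 ± 2.78 FPKM in control cells (SD, n = 3 each). GDF15 gave 64.2% ± 0.630 of that sum on overexpression and 54.2% ± 1.60 in control cells (SD, n = 3 each). Without GDF15, the sum was 49.6 ± 0.379 against 38.5 ± 0.535 FPKM (SD, n = 3 each). BMP2, BMP4 and INHBE gave most of that sum, in which GDF11 was lower and TGFB1 was not called.

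**Figure D3:**
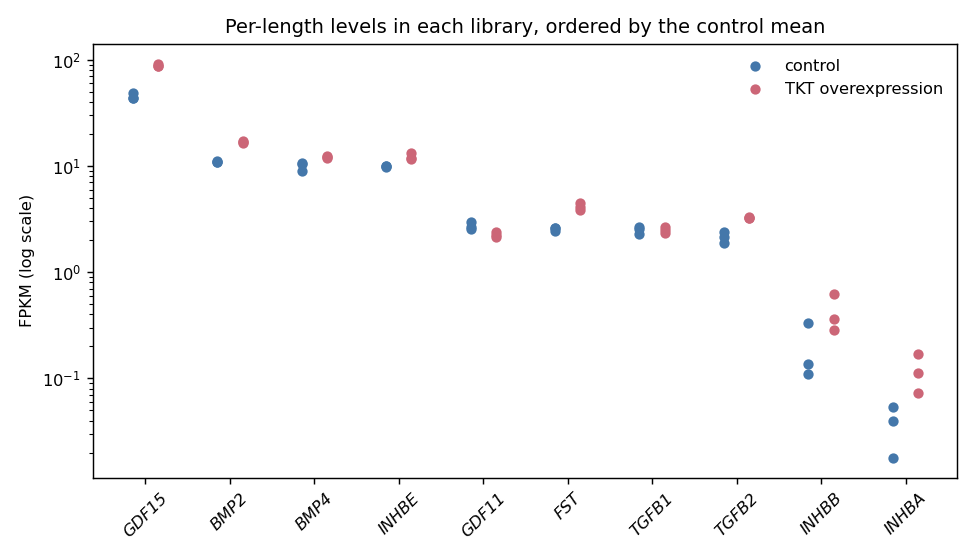
FPKM of the 10 genes in each of the 6 libraries on a log axis, ordered by the control mean, with control libraries in blue and TKT-overexpressing libraries in red. GDF15 stands above the rest in both groups, and INHBB and INHBA lie below 1 FPKM in all 6 libraries.

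The 3 genes of the group with the highest mean level were set beside all other tested genes by the Pearson correlation of log2 CPM over the 6 libraries. The most alike gene was CLK3 for GDF15 (r = 0.999), SHC2 for BMP2 (r = 0.999) and ZNF408 for BMP4 (r = 0.998). These values are descriptive, since the 6 libraries fall into 2 groups and 314, 322 and 107 genes had an r over 0.95 with GDF15, BMP2 and BMP4.

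The 6 lists of other genes of the pathway, 114 genes without the 10, were described by the same calls. Of these, 74 were tested. The calls were 17 higher and 4 lower, where 5.69% of all tested genes were called higher and 4.94% lower. Those shares are also the background for the counts of each list, most of which rest on 1 to 3 genes. The median log2 fold change of the 74 stood at 0.12, beside 0.00 for all tested genes. Without TKT overexpression replicate 1 the counts were 10 and 2, and without control replicate 1 they were 11 and 2. Without TKT overexpression replicate 2 or control replicate 2, 2 genes were called lower. Among the 114 genes, 6 are in 2 lists each.

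Of the other ligands, 12 of 28 were tested, 2 were called higher and 0 lower. AMH, the anti-Müllerian hormone, was higher by 0.70 on the log2 scale (standard error 0.13, edgeR adjusted p = 0.0192). It was not called without TKT overexpression replicate 1 (edgeR adjusted p = 0.0573), control replicate 2 (0.0978) or control replicate 3 (0.122). GDNF, a neurotrophic ligand that signals through RET, had 28, 33 and 23 counts on overexpression and 6, 2 and 4 in control cells (log2 fold change 2.70, standard error 0.57). It reached the filter level in 3 of 3 libraries on overexpression and in 0 of 3 control libraries, so it was tested only through the group in which it is high, and its call is not read as support. Of 25 other extracellular binders and antagonists, 12 were tested, 2 were called higher and 0 lower. THBS1, the thrombospondin that activates latent TGF-beta, was higher by 0.69 on the log2 scale (standard error 0.04, edgeR adjusted p = 4.58e-11). FSTL3, a follistatin-like antagonist of activins, was higher by 0.42 on that scale (standard error 0.08, edgeR adjusted p = 0.00179), so that it was called higher like FST. Of the 7 processing enzymes, TLL1 (log2 fold change 0.48, edgeR adjusted p = 0.0339) and TLL2 (1.14, edgeR adjusted p = 0.0359) were called higher. TLL1 was called in 1 and TLL2 in 2 of the 6 fits that each left out 1 library, with an adjusted p of up to 0.163 for TLL1 and 0.156 for TLL2. FURIN, the convertase that matures these ligands, was not called (log2 fold change 0.03).

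Most receptors moved little. Of 22 receptors and co-receptors, 16 were tested, 2 were called higher, 1 was called lower, and the median log2 fold change was -0.01. The values reached from -1.81 to 0.59. The lowest was that of the co-receptor ENG, which had 1 to 22 counts and was not called. ENG reached the filter level in 0 of 3 libraries on overexpression and in 3 of 3 control libraries. The called genes were ACVR1, a type I receptor for BMPs (log2 fold change 0.27, edgeR adjusted p = 0.0330), BAMBI, a decoy receptor (0.17, 0.0162), and TGFBR3, the co-receptor betaglycan (-0.19, 0.0323). ACVR1 was called in 1, TGFBR3 in 2 and BAMBI in 4 of the 6 fits that each left out 1 library. None of ACVR1B, ACVR2A, ACVR2B, TGFBR1, TGFBR2, BMPR1A and BMPR2, 7 of the type I and type II receptors on the list, was called. Their log2 fold changes lay between -0.11 and 0.15, with 95% intervals that reached from -0.29 to 0.37 over the 7 genes.

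Of 15 SMADs and SMAD regulators, all tested, 3 were called higher and 1 lower. SMAD3 was higher (log2 fold change 0.23, edgeR adjusted p = 0.00594), as were TGIF1, a SMAD corepressor (0.37, 9.64e-06), and SMURF1, a ubiquitin ligase for SMADs (0.18, 0.0381), the last of which was called in 2 of the 6 fits that each left out 1 library. SMAD6, an inhibitor of BMP signaling, was lower (-0.28, 0.00354). SMAD2 (0.05), SMAD4 (0.01) and SMAD7 (0.13) were not called. Of 23 SMAD target genes, 18 were tested, 8 were called higher and 3 lower, with a median log2 fold change of 0.15. Of these, KLF10, a TGF-beta inducible early gene, was higher by 0.72 on the log2 scale (edgeR adjusted p = 1.32e-08), TGFBI by 0.31 (7.99e-06) and CCN2 by 0.22 (4.57e-04). ID1, the classical BMP target, was lower, falling from 973 ± 36.4 to 848 ± 24.2 CPM (SD, n = 3 each; log2 fold change -0.20, edgeR adjusted p = 0.00115). BMP2 and BMP4 were thus called higher in the same cells in which ID1 and SMAD6 were called lower. Of the same target list, BAMBI was called higher and SMAD7 was not called. Of the other ID genes, ID4 was called lower (log2 fold change -0.40, edgeR adjusted p = 0.0202). ID2 was not called (0.06), and ID3 had at most 2 counts in any library. Whether the ligands bear on these genes was not tested. HAMP, the BMP-controlled gene of hepcidin, had at most 2 counts in any library.

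**Figure D4:**
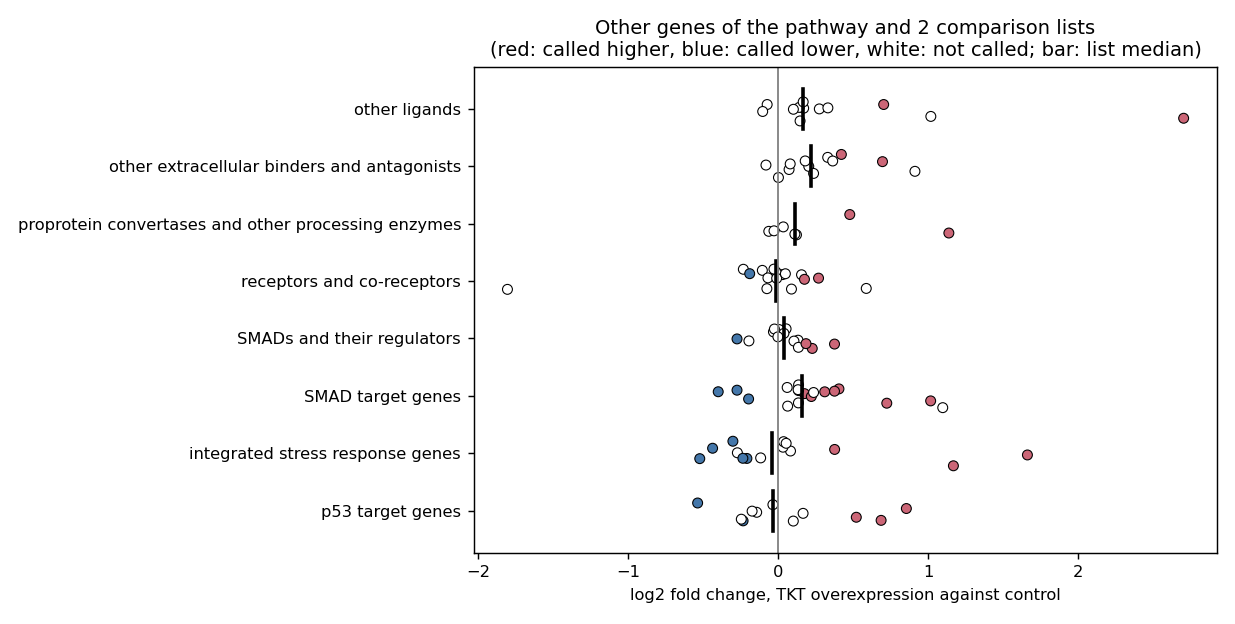
Log2 fold changes of the tested genes in 6 lists of other pathway genes and in 2 lists of stress genes. Each point is 1 gene, and vertical bars are list medians. Points called higher outnumber those called lower among the SMAD target genes, 8 against 3, while most receptors stand near 0.

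GDF15 and INHBE are known targets of the integrated stress response, and GDF15 also of p53, so both lists are given beside them. Over all tested genes, 5.69% were called higher and 4.94% lower. Of the 14 tested genes of the integrated stress response, 3 were called higher and 5 lower (median log2 fold change -0.04). The 6 called genes with the smallest p are named. ATF3 (log2 fold change 1.66, edgeR adjusted p = 6.33e-10) and PPP1R15A (1.17, 6.99e-13) were higher, whereas CHAC1 (-0.52, 0.00114), DDIT4 (-0.44, 1.32e-04), PSAT1 (-0.30, 1.10e-05) and STC2 (-0.24, 4.29e-04) were lower. Of the 11 tested p53 targets, 3 were called higher and 2 lower (median -0.04). GADD45A (0.85, edgeR adjusted p = 4.32e-08), BTG2 (0.52, 0.00329) and TP53INP1 (0.69, 0.00967) were higher, and CDKN1A (-0.54, 0.00265) and MDM2 (-0.24, 0.0165) were lower. TP53INP1 was not called without control replicate 3, nor MDM2 without TKT overexpression replicate 1 or 2. Members of both lists went both ways, and whether either response bears on GDF15 or INHBE was not tested.

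Of the 10 genes, 5, GDF15, BMP2, TGFB2, FST and INHBE, were called higher in the reported fit and in all 14 other fits of the same libraries. Over those fits the log2 fold change lay between 0.93 and 1.02 for GDF15, 0.56 and 0.63 for BMP2, 0.45 and 0.69 for TGFB2, 0.54 and 0.75 for FST, and 0.25 and 0.32 for INHBE. INHBA, with 12 other fits that gave a value, lay between 0.11 and 2.05, and the lowest value came from log2(FPKM + 1), where the pseudocount exceeds its level many times over.

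**Figure D5:**
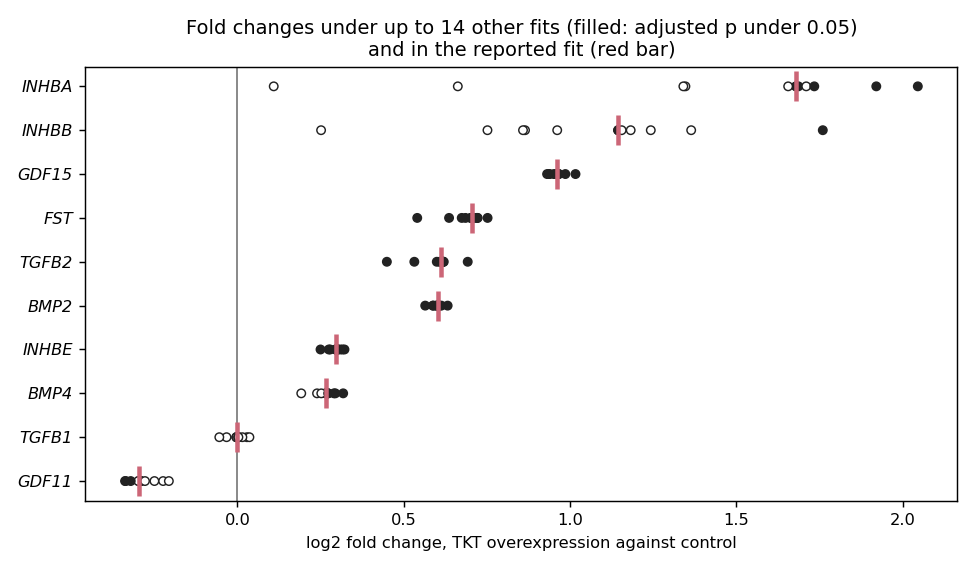
Log2 fold changes of the 10 genes in the reported fit (red bars) and in up to 14 other fits (points, filled where the adjusted p-value was under 0.05). GDF15, FST, TGFB2, BMP2 and INHBE are filled throughout, while INHBA and INHBB spread widely and TGFB1 lies on both sides of 0.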

How the data were processed

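RNA of 3 TKT-overexpressing and 3 control samples was measured by RNA-seq. The authors trimmed reads with fastp 0.22.0, aligned them with HISAT2 2.1.0 to hg38 and counted them per gene symbol with featureCounts, and deposited counts without normalization. The authors also deposited FPKM values per gene, which were used for levels between genes. The annotation and the strand and multi-mapping settings are not given in the sources used here.

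The deposited counts went into edgeR 4.0.16 under R 4.3.3. Genes were kept by filterByExpr at a minimum count of 10, scaled by TMM and tested by the quasi-likelihood method with robust estimation and without pairing, and p-values of 14162 genes were adjusted by Benjamini-Hochberg. Standard errors and 95% intervals come from the same fit. The common biological coefficient of variation was 0.113. Totals of 30148788 to 37096156 counts set the precision, which is low for INHBA and INHBB. The alternatives were DESeq2 1.42.0, RLE factors, library totals, 2 filters, the replicate number as a block, each library left out, and limma 3.58.1 on log2(FPKM + 1) and log2(FPKM + 0.1). The labels call the samples biosamples and do not say that they were separate cultures, so p-values measure the spread between these samples. The procedures were tested on simulated data. Chi-square per degree of freedom between libraries of a group was 7.27 to 10.0, so none was a copy of another. No per-sample column was left unused.

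The 10 genes and all lists were chosen with earlier results of these data known. The genes named are the 10, TKT, up to 6 called genes with the smallest p per list, 7 receptors and 6 SMAD genes and targets whatever their values (1 of the targets is not reported here), and the gene most alike to each of the 3 most abundant members. Marker genes, INHBC, TGFB3, FURIN, HAMP, ENG, ID2, ID3, ID4 and genes overlapping a member were named after their values were seen. The motifs TGACGT and TGATGNAAT were added after the promoters were read. Positions are from GENCODE 29 and promoters from RefSeq (GRCh38.p14).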

Additional observations from a re-analysis of the deposited data

How the results depend on the processing

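Of the 10 genes, 9 kept their direction in every alternative that gave a value, and 7 were called higher with a range of 5 to 8 (5 to 7 with 1 library left out). TGFB1, near 0, changed sign with library totals (0.0028), no filter (1.5e-05), at least 10 counts in every library (0.0031), log2(FPKM + 1) (0.0022) and log2(FPKM + 0.1) (0.0031), and lay between -0.0543 and 0.0362 with 1 library left out. ACVR2B (-0.0035 to 0.0485), BMPR2 (-0.0621 to 0.0721), SMAD4 (-0.0417 to 0.0495) and TGFBR1 (-0.0816 to 0.0266) also changed sign with 1 library left out.

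With an absolute log2 fold change over 1, the call of 1 gene became 0 with DESeq2, at least 10 counts, the replicate block and both FPKM scales, 2 with no filter, and 0 to 2 with 1 library left out. INHBA, INHBB and GDNF had no adjusted p in DESeq2, and INHBA and GDNF did not pass the filter of 10 counts. The 1 gene called lower, GDF11, was not called (0) with the replicate block and on both FPKM scales, and 0 to 1 were called with 1 library left out. Other pathway genes gave 10 to 15 higher and 2 to 4 lower with 1 library left out, 11 and 2 with the replicate block and 10 and 2 on both FPKM scales, against 17 and 4. Of 29 named genes of the lists that were called, 18 were called in all alternatives with a value. Over all genes, 806 higher and 699 lower became 431 and 266 with the replicate block, 496 and 331 on log2(FPKM + 1), 494 and 332 on log2(FPKM + 0.1), and 465 to 823 and 334 to 765 with 1 library left out.

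Same-numbered libraries did not deviate together (r of -0.0252 to 0.0156), so no pairing by replicate number was seen. With 3 libraries per group, this check cannot exclude a weak pairing. With the block INHBA (log2 fold change 1.66) and BMP4 (0.27) were not called, which leaves 5 of the 7. Counts of 5 to 74 limit INHBA and INHBB. The cause of these changes was not tested.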
